A study of Homo sapiens with 32 samples.

Results

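N6-methyladenosine (m6A) peaks were compared between 786-O cells in which SETD2 was knocked out, clone 1 (SETD2KO-1), and the parental 786-O cells (WT). Overlapping peaks of the 2 SETD2KO-1 and 2 WT libraries were merged into 61607 regions. A region was taken as gained when both SETD2KO-1 libraries and neither WT library called a peak in it, and as lost in the reverse case. By this rule 3132 regions were gained (5.08% of all regions) and 2373 were lost (3.85%), and 13545 regions were called in all 4 libraries. 786-O is an established clear cell renal cell carcinoma (ccRCC) line, grown in RPMI1640 with 10% FBS and left untreated in each group compared here. SETD2KO-1 is 1 clone of that line, so that a property of the clone and an effect of SETD2 loss cannot be told apart from these 4 libraries. The series as a whole holds 16 m6A immunoprecipitation (IP) libraries of 786-O and of the immortalized proximal tubule line RPTEC, each as WT, as 2 SETD2 knockout clones, SETD2KO-1 and SETD2KO-2, and as clone 1 with a full-length SETD2 transgene put back and cloned again (SETD2KO-1R). The labels do not say whether the libraries of a group came from separate cultures, so the spread between them may be technical.

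m6A is the most common internal modification of mRNA. It is placed in the nucleus while the RNA is being made by a methyltransferase complex built on METTL3 and METTL14 with WTAP, VIRMA and ZC3H13, is removed by FTO and ALKBH5, and is read by the YTH-domain and IGF2BP proteins, which act on splicing, decay and translation. SETD2 trimethylates lysine 36 of histone H3 (H3K36me3) over transcribed gene bodies, METTL14 can bind that mark, and SETD2 is often mutated in ccRCC. The comparison asks where m6A moves in a ccRCC line once SETD2 is lost. In MeRIP-seq, RNA fragments bound by an m6A antibody are sequenced beside the unselected Input RNA, and a peak is a stretch with more IP than Input signal. A peak needs its RNA to be present, and the peak lists hold no read counts, so more transcript and more m6A per transcript cannot be told apart here.

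Sequences are given for transcripts that a gained or lost region overlaps at a defined point, a miRNA hairpin or the first transcribed bases of a gene. The peaks carry no strand or reads, so whether the hairpin, its host transcript or another RNA gave the peak cannot be told apart. Gained regions overlapped 5 miRNA hairpins (0.16% of regions) and lost regions 7 (0.295%), against 51 for regions called in all 4 libraries (0.377%) and 76 for the remaining regions (0.179%). The tetramer GGAC, the core of the m6A consensus, searched on the RNA strand, was present in 3 of the 5 hairpins in gained regions, in 3 of the 7 in lost regions, in 23 of the 51 in regions called in all 4 libraries, in 26 of the 76 in other regions and in 427 of all 1562 hairpins (27.3%). The mature miRNAs of 5 of the hairpins that hold it follow, from RefSeq (GRCh38.p14), with the seed (bases 2 to 8) in capitals, joined by miR-6090, whose hairpin lacks GGAC but lies in the lost region with the highest score of those over hairpins. From gained regions:
hsa-miR-8072: gGCGGCGGggagguaggcag
hsa-miR-1909-3p: cGCAGGGGccgggugcucaccg
hsa-miR-1909-5p: uGAGUGCCggugccugcccug
hsa-miR-4674: cUGGGCUCgggacgcgcggcu
From lost regions:
hsa-miR-1182: gAGGGUCUugggagggaugugac
hsa-miR-3191-3p: uGGGGACGuagcuggccagacag
hsa-miR-3191-5p: cUCUCUGGccgucuaccuucca
hsa-miR-6090: gGGGAGCGaggggcggggc

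All 18 mature miRNAs of the 12 hairpins had different seeds. The hairpin of the sixth, miR-4786, within NDUFA10, was overlapped by 2 bp, and that of miR-4674 by 45 bp at one side. The hairpin of miR-1909 lies within the body of REXO1, that of miR-3191 within BBC3, which encodes the p53-induced apoptosis factor PUMA, and that of miR-6090 within ETS1, a transcription factor gene. The lost region over miR-6090 (chr11:128521775-128522575, hg38) ranked at the 97.7 and 91.2 percentile of peak scores in the 2 WT libraries. The lost region over miR-3191 (chr19:47226624-47227007) ranked at the 80.9 and 61.3 percentile there. The gained regions over hairpins ranked between the 14.4 and 56.5 percentile in the SETD2KO-1 libraries.

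A transcription start of a protein-coding gene lay in 108 gained regions (3.45%) and in 93 lost regions (3.92%), against 1120 of the regions called in all 4 libraries (8.27%) and 1468 of the remaining 42557 regions (3.45%). GGAC was present in the first 50 transcribed bases of 24.1% of the genes with a gained start, 18.3% of those with a lost start and 19.7% of all 15860 protein-coding starts in the table. The first 30 transcribed bases, on the gene's strand, are printed for the 3 gained starts with GGAC (in capitals) among the 12 with the highest scores, and for the 2 lost starts with the highest scores, where GGAC is not in that window.
MPZL1, gained: gcagagctggagagccgcggctgGGACcgg
RBM42, gained: gcttttgctGGACgtcatcctcgggagccc
RAB14, gained: atcttGGACcagcccgaggaagatactgag
UBE2S, lost: ggctcagtgctgccgggcaccggggcggcg
YTHDF1, lost: gtcgccgccgccgccgccattggagtcgac

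RBM42 encodes a splicing-associated RNA-binding protein, RAB14 an endosomal GTPase, UBE2S a ubiquitin-conjugating enzyme of mitosis and YTHDF1 a cytoplasmic m6A reader. The YTHDF1 region (chr20:63215601-63216168) ranked at the 92.3 and 93.1 percentile in WT. The start of YBX1, a Y-box RNA-binding protein, lay in a gained region (chr1:42682235-42682546) at the 93.6 and 99.1 percentile in SETD2KO-1.

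The WT libraries held 31516 and 36401 peaks and the SETD2KO-1 libraries 32739 and 35555, so the group totals overlapped. Of the other 786-O libraries, SETD2KO-2 held 39670 and 28934 peaks and SETD2KO-1R 32016 and 25710. Peak counts per gene or run given below were not adjusted for these totals, so lower counts in the second library of each can partly follow its shorter list. Read depth per library is unknown, because the files give peaks without counts. The lists differed in their shortest peak, which was 264 and 236 bp in WT and 272 bp in both SETD2KO-1 libraries, and 8.74% and 23.1% of the WT peaks were shorter than 272 bp. SETD2 itself, whose knockout defines the clone, held 8 and 10 peaks in WT and 5 and 10 in SETD2KO-1, with no gained or lost region. Peaks in an edited gene's RNA measure neither its protein nor the edit, so they are no check of the labels. Renal tubule and ccRCC markers had a peak for 10 to 13 of 22 genes per library, leukocyte markers for 1 or 2 of 14, endothelial markers for 0 of 9 and fibroblast markers for 0 of 10 in 3 libraries and 3 of 10 in WT replicate 2.

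The 95% Wilson interval over regions, which covers counting error alone, was 4.91% to 5.26% for gained and 3.70% to 4.01% for lost regions. More regions were gained than lost in 6 of the 6 alternatives that kept all 4 libraries. The balance depended on the peak length that entered: with peaks of at least 272 bp in every list, 4105 regions were gained and 1563 lost. It also turned when a WT library was left out, to 4829 gained and 10946 lost regions without WT replicate 1 and to 5944 and 8792 without WT replicate 2, since a group of 1 library has fewer conditions to meet. With 2 libraries against 2, an exact permutation test cannot go below p = 0.333, so the counts carry no test. Median widths were 476 bp for gained and 440 bp for lost regions, against 768 bp for regions called in all 4 libraries and 414 bp for all regions. The median score percentile within the libraries that called them was 38.4 for gained and 37.8 for lost regions, against 65.7 for those called in all 4 and 39.9 for all regions. The upper decile of scores held 163 gained regions (5.20%) and 79 lost regions (3.33%), below the 6.61% of all regions and the 12.8% of those called in all 4.

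Gained regions lay in no gene more often than lost regions did, at each of the 10 other settings that were tried (13.1% to 17.5% against 4.48% to 7.46%). Of the gained regions, 68.8% had their midpoint in a protein-coding gene, 12.5% in another gene only and 17.4% in no gene of the table. Of the lost regions, 86.3% lay in a protein-coding gene, 6.95% in another gene only and 6.57% in no gene. The share in no gene was 8.67% over all regions and 4.77% over those called in all 4 libraries. The share of all peaks in no gene was 6.08% and 6.07% in the WT libraries and 8.32% and 8.87% in the SETD2KO-1 libraries, so that the groups did not overlap. Within genes with a known strand, 16.5% of gained and 17.3% of lost regions lay in the last 10% of the gene body, toward the 3′ end where m6A is known to concentrate, close to the 17.1% of all regions, and 24.5% of regions called in all 4 did. Most regions of either kind stood apart from the other group's peaks rather than beside them. Of the gained regions 22.3% were within 1 kb of a WT peak, and of the lost regions 24.4% were within 1 kb of a SETD2KO-1 peak.

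**Figure D1:**
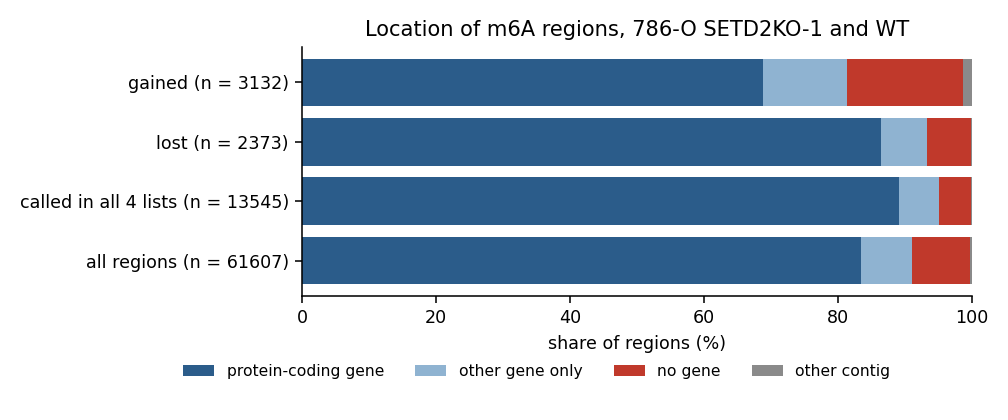
Share of gained, lost, called-in-all-4 and all regions (bars, n regions beside each name) by where the region's midpoint lies. The red segment, regions in no gene, is 17.4% of gained regions and 6.57% of lost regions.

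Part of the gained regions outside genes lay far from any protein-coding gene or in runs. Their median distance to a protein-coding gene was 23906.5 bp, with 36.6% of the 544 within 10 kb and 31.8% more than 100 kb away. For the 156 lost regions outside genes the median distance was 5374 bp, with 58.3% within 10 kb and 9.62% beyond 100 kb. Linking neighbours within 100 kb gave 15 runs of 4 or more gained regions, which held 97 regions (17.8%), while 260 gained regions had no such neighbour, and 1 such run of 6 lost regions.

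The longest run held 15 gained regions between CYRIA and RAD51AP2 (chr2:17126384-17422055, hg38). It had 0 and 0 peaks in WT, 24 and 23 in SETD2KO-1, 29 and 20 in SETD2KO-2, and 0 and 0 in SETD2KO-1R. A run of 9 regions between RNF144B and ID4, a helix-loop-helix inhibitor of differentiation (chr6:19478440-19543340), had 0 and 0 peaks in WT and 12 and 11 in SETD2KO-1. The run of 8 regions between FASLG and TNFSF18, which encode ligands of the tumour necrosis factor family (chr1:172782631-172853026), had 0 and 0 peaks in WT and 13 and 8 in SETD2KO-1. The rescued clone separated these runs: the ID4 run had 0 and 0 peaks in SETD2KO-1R, whereas the FASLG run had 11 and 6, counted over its whole span. The run of 6 lost regions lay next to COL5A1, a fibrillar collagen gene (chr9:134584923-134639424), and had 7 and 8 peaks in WT, 0 and 0 in SETD2KO-1, 0 and 0 in SETD2KO-2 and 4 and 0 in SETD2KO-1R.

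The share of peaks also shifted between chromosomes. Both SETD2KO-1 libraries lay above both WT libraries on 9 of 24 chromosomes, below them on 8, and overlapped them on 7. Chromosome 16 held 4.58% and 4.37% of the WT peaks and 5.84% and 5.39% of the SETD2KO-1 peaks. Chromosome 9 held 5.04% and 5.01% in WT and 6.21% and 5.99% in SETD2KO-1. In the other direction, chromosome 1 held 10.4% in each WT library and 9.07% and 9.41% in SETD2KO-1. On chromosome 7 the shares were 6.17% and 6.20% in WT and 5.23% and 5.36% in SETD2KO-1. On these 4 chromosomes the groups stood apart by more than the spread between libraries.

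Gained and lost regions followed the same chromosomes. On chromosome 9, 293 regions were gained and 90 lost, 8.51% and 2.61% of its regions, and on chromosome 16, 221 were gained and 51 lost. On chromosome 1, 227 were gained and 308 lost, and on chromosome 7, 132 were gained and 190 lost. These 2 excesses of lost regions turned to excesses of gained regions when peaks under 272 bp were left out. Without WT replicate 1, gained minus lost turned from 203 to -62 on chromosome 9 and fell from 170 to 32 on chromosome 16, and without WT replicate 2 it was 84 and 129. SETD2KO-2 had shares of 5.92% to 6.15% on chromosome 9 and 5.31% to 5.73% on chromosome 16, within or near the SETD2KO-1 values. In SETD2KO-1R the share on chromosome 9 was 4.48% to 4.66%, below both WT libraries, while that on chromosome 16 stayed at 5.45% to 5.49%, above both.

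**Figure D2:**
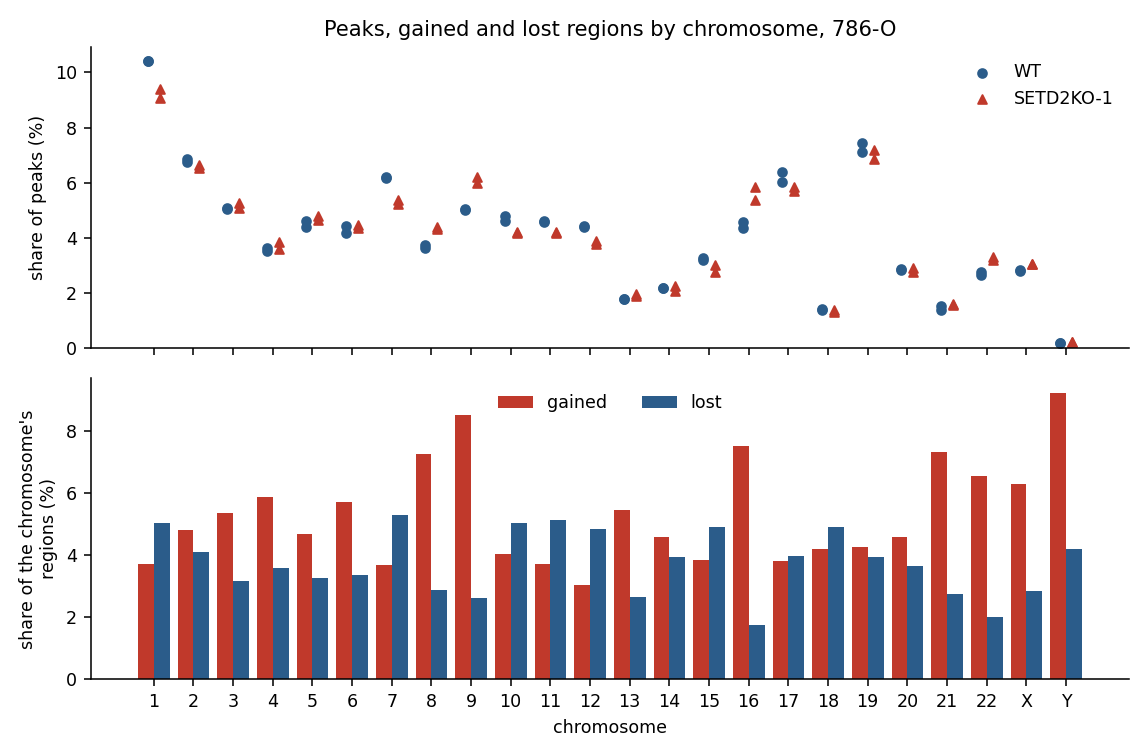
Upper panel, share of each library's peaks on each chromosome (%), with 2 WT libraries (circles) and 2 SETD2KO-1 libraries (triangles). Lower panel, share of each chromosome's regions that were gained or lost (%). Chromosome 9 has the triangles above the circles and 8.51% gained against 2.61% lost regions.

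Among 11602 protein-coding genes with a region, 1773 (15.3%) held a gained region, 1713 (14.8%) a lost region and 289 both. A region called in all 4 libraries was also held by 1139 of the 1773 genes with a gained region and by 1079 of the 1713 with a lost region, against 6733 of all 11602 genes (58%). At least 3 gained regions were found in 92 genes and 3 or more lost regions in 80. The 8 gained regions with the highest scores lay in ARGLU1, SRSF11, BMS1, FIP1L1, MAP2K1, RSBN1L, RNF168 and FAM50A, and their score percentiles ran from 99.3 to 100 in both SETD2KO-1 libraries. ARGLU1 is a splicing coactivator, SRSF11 an SR-family splicing factor, FIP1L1 a subunit of the mRNA cleavage and polyadenylation complex, and BMS1 a ribosome assembly GTPase. MAP2K1 encodes the kinase MEK1, and RNF168 a ubiquitin ligase that marks chromatin at DNA double-strand breaks.

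The region of SRSF11 (chr1:70250112-70250655) lay 94.4% of the way along the gene and was also called in both SETD2KO-2 and both SETD2KO-1R libraries. The region of ARGLU1 (chr13:106559558-106559921) lay 31.7% of the way along and was called in 0 of these 4 libraries. The region of RNF168 (chr3:196487510-196487845) was called in all 4 of them. The highest-scoring gained regions therefore differed in whether other SETD2-deficient or rescued cells shared them.

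The 8 lost regions with the highest scores lay in APLP2, YBX3, STK17A, NCAM1, NDUFA13, DIAPH1, the overlapping pair ANO7 and HDLBP, and CCDC136, with score percentiles of 97.3 to 99.9 in the WT libraries. YBX3 is a Y-box RNA-binding protein, HDLBP a KH-domain RNA-binding protein, NDUFA13 a subunit of complex I and DIAPH1 a formin that nucleates actin. The lost region of YBX3 (chr12:10699585-10699897) had its midpoint 652 bp from the 3′ end of the gene and was called again in both SETD2KO-2 and both SETD2KO-1R libraries. The lost region of NDUFA13 (chr19:19527460-19528071) had its midpoint 432 bp from the 3′ end of the gene and was called in none of those 4 libraries. It held the sole WT peak of the gene in each library, and the gene had 0 and 0 peaks in SETD2KO-1.

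The genes with most gained regions were ASTN2 with 14, CNTN6 with 8, and CLDN14, MAMDC2, RXRA and XKR9 with 6 each. ASTN2 and CNTN6 are neuronal migration and adhesion genes, CLDN14 a tight junction claudin and RXRA the retinoid X receptor alpha. ASTN2 (chr9:116423112-117415057) had 10 and 12 peaks in WT and 30 and 31 in SETD2KO-1. CNTN6 (chr3:1093024-1404217) had 0 and 0 peaks in WT and 10 and 12 in SETD2KO-1. RXRA had 14 and 15 in WT and 23 and 27 in SETD2KO-1. These genes were chosen by the same peaks, so the gap between the groups is a description. SETD2KO-2 had 41 and 22 peaks in ASTN2 and 13 and 15 in CNTN6, and SETD2KO-1R had 8 and 4 in ASTN2 and 0 and 0 in CNTN6. In RXRA, SETD2KO-2 had 33 and 7, on either side of the WT values, and SETD2KO-1R had 9 and 3. Of the 12 genes with 5 or more gained regions, ASTN2, MAMDC2, RXRA and DAB2IP lie on chromosome 9. That chromosome held 293 of the 3132 gained regions and 3445 of all 61607 regions.

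The genes with most lost regions were FRMD4A and NCAM1 with 9 each, ANXA8 with 8, ADAM12 with 7, and EHBP1 and SMYD3 with 6 each. NCAM1 encodes a neural cell adhesion molecule, ADAM12 a membrane metalloprotease, ANXA8 an annexin and SMYD3 a lysine methyltransferase. NCAM1 (chr11:112961420-113278436) had 15 and 17 peaks in WT and 0 and 1 in SETD2KO-1. ADAM12 had 15 and 17 peaks in WT and 2 and 8 in SETD2KO-1. FRMD4A had 36 and 40 in WT and 20 and 24 in SETD2KO-1. NCAM1 remained without most of its peaks in the other 786-O lines, at 1 and 2 in SETD2KO-2 and 0 and 0 in SETD2KO-1R. In SETD2KO-1R, ADAM12 had 3 and 3 peaks and FRMD4A 15 and 14, below both WT libraries.

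**Figure D3:**
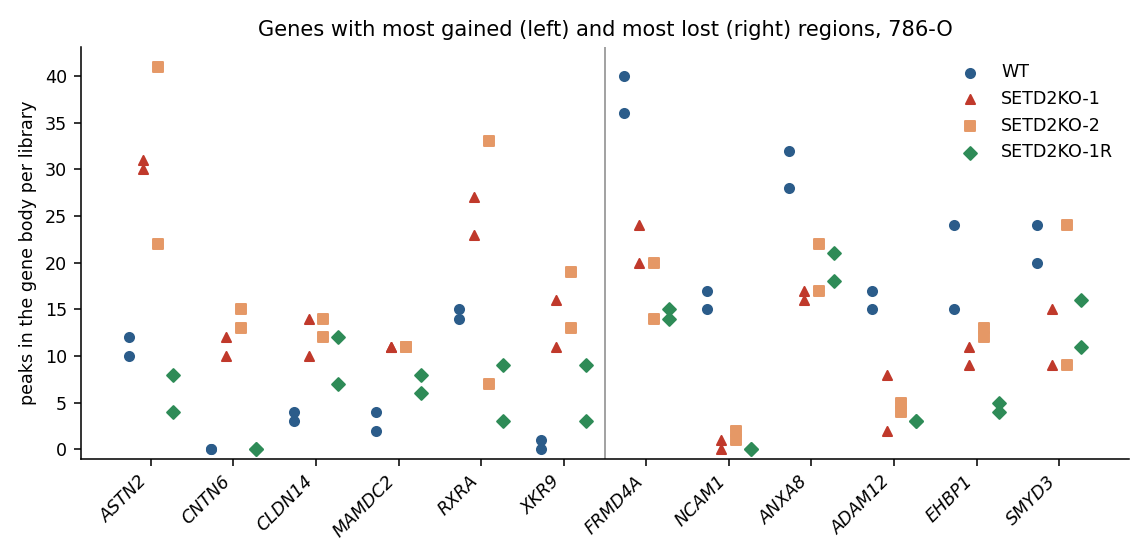
Peaks in the gene body per 786-O library (y axis), 2 points per line, for the 6 genes with most gained regions (left of the line) and the 6 with most lost regions (right). CNTN6 has 0 peaks in WT and SETD2KO-1R and 10 to 15 in the SETD2 knockout clones, and NCAM1 has 15 and 17 peaks in WT and 0 to 2 elsewhere.

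Of 11638 protein-coding genes with a peak in any of the 4 libraries, 327 (2.81%) had a peak in each SETD2KO-1 library but in no WT library, and 318 (2.73%) the reverse. Genes with peaks in SETD2KO-1 alone included CNTN6 and PKHD1, the fibrocystin gene of recessive polycystic kidney disease, with 5 and 4 peaks in SETD2KO-1, 2 and 6 in SETD2KO-2 and 0 and 0 in SETD2KO-1R. DSP, which encodes the desmosome protein desmoplakin, had 5 and 3 peaks in SETD2KO-1 and 4 and 4 in SETD2KO-1R. Genes with peaks in WT alone included GFRA1, a co-receptor for glial cell line-derived neurotrophic factor, with 7 and 12 peaks in WT. GFRA1 had 2 and 0 peaks in SETD2KO-2 and 1 and 1 in SETD2KO-1R. NRXN3, a neurexin, had 3 and 15 peaks in WT and 6 and 4 in SETD2KO-1R, and MELTF, melanotransferrin, had 6 and 8 in WT and 8 and 5 in SETD2KO-1R. Peaks in MELTF and NRXN3 were thus present in WT and in the rescued clone and, in SETD2KO-2, numbered 1 and 0 in MELTF and 0 and 0 in NRXN3. Return in the rescued clone was not general among genes with peaks in WT alone. EVC2 had 5 and 5 peaks in WT and 1 and 1 in SETD2KO-1R, and NES 3 and 4 in WT and 0 and 0 in SETD2KO-1R.

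Gene lists chosen for kidney cancer and m6A are given by counts beside the share of all genes, 15.3% gained and 14.8% lost, with no test of a list. A gene with many regions can hold a gained or lost one more readily, so the share of a list's regions is given too, beside 4.19% gained and 3.99% lost of the 51381 regions in all protein-coding genes. In fatty acid oxidation, 3 of 33 genes with a region held a gained region (9.09%) and 9 a lost region (27.3%), and of its 141 regions 2.13% were gained and 7.09% lost. Its total of peaks did not separate the groups, at 72 and 84 in WT and 83 and 78 in SETD2KO-1, and the median peak difference per gene was 0. Its 25 regions called in all 4 libraries had a median rank change of 7.72 percentile points, higher in SETD2KO-1, against -0.205 over all such regions. The lost ones were ACAD10, ACADSB, ACADVL, ACAT1, ACOX3, ACSL3, CROT, ETFA and ETFB, enzymes and electron carriers of mitochondrial and peroxisomal beta-oxidation. The lost region of ETFB, a subunit of electron transfer flavoprotein, ranked at the 93.6 and 96.8 percentile in WT. That of ACADVL, shared with DLG4, ranked at the 23.4 and 0.826 percentile. ACADVL as a whole held 4 and 4 peaks in WT and 5 and 4 in SETD2KO-1. The gained ones were MLYCD, PPARA and PPARGC1A, of which the latter pair are transcriptional regulators of the pathway. ACAD10 had 3 and 2 peaks in WT and 0 and 0 in SETD2KO-1.

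In sterol and fatty acid synthesis 8 of 32 genes were gained (25%) and 4 lost (12.5%), and of its 156 regions 5.13% were gained and 3.21% lost. The median gene of this list had 0.5 fewer peaks in SETD2KO-1 than in WT, and CYP51A1, INSIG2 and SC5D had peaks in WT alone, whereas no gene of it had peaks in SETD2KO-1 alone. The gained genes included SQLE, squalene epoxidase, whose region (chr8:125002911-125003193) ranked at the 83.4 and 88.3 percentile, ACLY, ATP citrate lyase, ACACA and SREBF2. ACACA, acetyl-CoA carboxylase, also held a lost region. Oxidative phosphorylation subunits had 6 of 50 genes gained (12%) and 7 lost (14%), with 5.04% and 5.88% of its 119 regions. ATP5F1B, of ATP synthase, held a gained region at the 78.0 and 55.1 percentile, while its peaks numbered 0 and 3 in WT and 1 and 1 in SETD2KO-1. In the TCA cycle 3 of 19 genes were gained and 2 lost, with 4.62% and 3.08% of its 65 regions. The lost ones included DLST, the E2 subunit of 2-oxoglutarate dehydrogenase, with 1 and 1 peaks in WT, 0 and 0 in SETD2KO-1 and SETD2KO-2, and 1 and 1 in SETD2KO-1R.

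Among genes of epithelial-mesenchymal transition, 2 of 35 were gained (5.71%) and 8 lost (22.9%), and of its 220 regions 1.36% were gained and 4.09% lost, the latter close to the share in all genes. The lost ones included ZEB1, a transition-driving repressor, TJP1, a tight junction protein, and SMAD2. In the hypoxia pathway, which is constitutively active in this VHL-deficient line, 4 of 37 genes were gained (10.8%) and 6 lost (16.2%), with 2.01% and 4.52% of its 199 regions. VEGFA held 5 and 7 peaks in WT and 3 and 3 in SETD2KO-1, and EPAS1, the gene of HIF-2α, 6 and 6 in WT and 3 and 1 in SETD2KO-1. In the other direction, SLC2A1 held 3 and 7 in WT and 8 and 7 in SETD2KO-1. The total of peaks in the hypoxia list did not separate the groups, at 109 and 151 in WT and 113 and 115 in SETD2KO-1. Its median peak difference per gene was -0.5. Extracellular matrix and integrin genes had 12 of 35 gained (34.3%) and 10 lost (28.6%), and of their 365 regions 3.84% were gained and 3.56% lost. COL6A1 had 4 and 2 peaks in WT and 8 and 7 in SETD2KO-1, and COL6A2 had 4 and 6 in WT and 11 and 7 in SETD2KO-1. In the other direction, LAMB1 had 8 and 11 in WT and 5 and 4 in SETD2KO-1. The list's total of peaks did not separate the groups, at 181 and 236 in WT and 203 and 190 in SETD2KO-1. Its median peak difference per gene was -0.5. The laminin gene LAMC1 held both a gained region, at the 97.7 and 99.7 percentile, and a lost region.

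The m6A machinery had 4 of 26 genes gained (15.4%) and 5 lost (19.2%), with 3.47% of its 144 regions in each direction. The gained genes were the writer subunits VIRMA and ZC3H13, the eraser FTO and the reader FMR1. The lost genes were the eraser ALKBH5, the readers IGF2BP3, YTHDC1 and YTHDF1, and ZCCHC4, which methylates ribosomal RNA. METTL3 had 1 and 0 peaks in WT and 1 and 0 in SETD2KO-1, and METTL14 1 and 1 in WT and 2 and 1 in SETD2KO-1, with no gained or lost region in either. Among H3K36 methylation enzymes and readers 7 of 28 genes were gained (25%) and 8 lost (28.6%), but of its 244 regions 2.87% were gained and 3.69% lost, below the shares in all genes. DNMT3B, a DNA methyltransferase whose PWWP domain binds methylated H3K36, held a gained region at the 96.1 and 93.8 percentile, and NSD2, which dimethylates H3K36, a lost region at the 94.0 and 56.0 percentile. Of the ccRCC suppressors and mTOR genes 4 of 24 were gained and 4 lost, with 3.54% and 2.53% of their 198 regions. BAP1 and PBRM1, which neighbour SETD2 on chromosome 3p, held lost regions, and the BAP1 region ranked at the 90.7 and 84.5 percentile in WT.

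DNA double-strand break and replication repair had 7 of 47 genes gained (14.9%) and 12 lost (25.5%), and of its 286 regions 3.15% were gained and 5.24% lost. The gained ones included RNF168 and BRCA1, of which BRCA1 also held lost regions. The lost ones were ATM, ATRIP, BLM, BRCA1, FANCI, MSH6, RAD50, RAD51D, RNF8, RRM2, WRN and XRCC3, and RRM2, the ribonucleotide reductase subunit, ranked at the 70.1 and 78.3 percentile. SR proteins and splicing factors had 7 of 42 gained (16.7%) and 3 lost (7.14%), with 3.89% and 1.67% of its 180 regions, and p53 and cell cycle genes 8 of 52 gained (15.4%) and 7 lost (13.5%), with 5.14% and 4.57% of their 175 regions. SRSF6 had 0 and 0 peaks in WT, 1 and 1 in SETD2KO-1, 1 and 1 in SETD2KO-2 and 0 and 1 in SETD2KO-1R. Of the 14 renal markers with a region, 2 held a gained region (KRT18 and PAX2) and 4 a lost region, ANPEP, KRT19 and PAX8 among them, with 3.17% and 4.76% of their 126 regions. PAX2, a renal lineage factor, had 8 and 13 peaks in WT and 15 and 14 in SETD2KO-1, with 3 gained regions. ANPEP, the brush border aminopeptidase N, had 3 and 6 peaks in WT and 0 in each of the other 6 libraries of 786-O, and KRT19 had 1 and 2 in WT and 0 in each of the other 6. PAX8, also a renal lineage factor, had 13 and 16 peaks in WT and 13 and 12 in SETD2KO-1, with 1 lost region (chr2:113216254-113216658).

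Of the 20 genes that the study names for 786-O, 19 had a region, 5 gained and 4 lost, with 9.30% and 4.65% of their 86 regions. The study picked part of them on these samples and others from its expression data on SETD2-deficient cells of the same line, so they are not independent evidence of a direction. SLC29A3, a nucleoside transporter, had 2 and 2 peaks in WT and 7 and 5 in SETD2KO-1, with 2 gained regions. SERPINH1, a collagen chaperone, had 2 and 2 in WT and 4 and 5 in SETD2KO-1, with 3 gained regions. HM13, signal peptide peptidase, had 8 and 6 in WT and 7 and 6 in SETD2KO-1, with 1 gained and 1 lost region, and CHPF, a chondroitin polymerizing factor, 3 and 4 in WT and 3 and 5 in SETD2KO-1, with neither. LY96, the TLR4 co-receptor, had 0 and 0 in WT and 3 and 4 in SETD2KO-1. Besides HM13, the genes with a lost region were ACADVL, DLST and NDUFA7. NDUFA7 had 3 and 2 peaks in WT and 0 and 1 in SETD2KO-1.

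**Figure D4:**
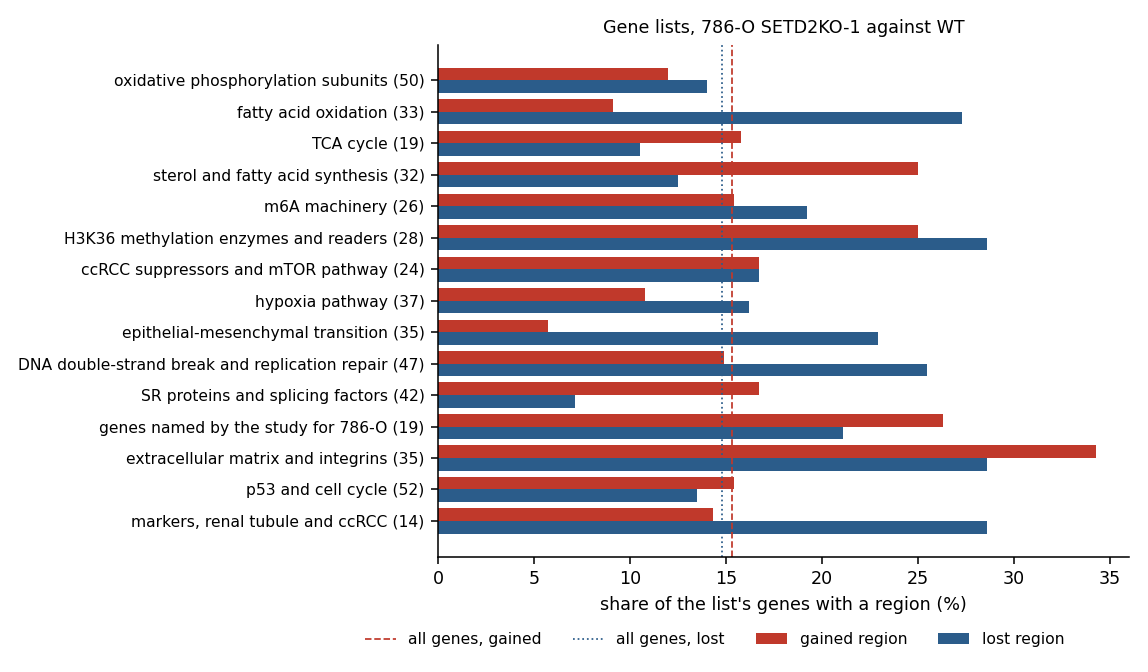
Share of each list's genes with a region (number in brackets) that held a gained (red) or lost (blue) region, in %, with the shares of all protein-coding genes as dashed (gained, 15.3%) and dotted (lost, 14.8%) lines. Fatty acid oxidation has 9.09% gained against 27.3% lost, and sterol and fatty acid synthesis 25% against 12.5%.

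In the 13545 regions called in all 4 libraries, neither the score rank nor the covered width passed a test. Scores were ranked within each library and fitted with limma, and 0 regions (0%) passed a Benjamini-Hochberg adjusted p of 0.05. At an unadjusted p of 0.05, 1100 regions passed (576 higher and 524 lower in SETD2KO-1), and the lowest adjusted p was 0.0855. For width, 0 regions (0%) passed with limma, 1076 passed unadjusted, and the lowest adjusted p was 0.361. Missing this threshold does not show that rank or width was equal between the groups. With all 4 libraries, 0 regions passed for score rank at any alternative setting. Leaving out a library leaves 1 in its group, so the spread then comes from the other group alone and no count is drawn from such fits. Without WT replicate 2, the normal-quantile rank of PNPLA7 was 4.39 higher in SETD2KO-1, against 3.63 with all 4 libraries. PNPLA7 ranked at the 39.8 percentile in the library left out and at 3.90 in the remaining WT library. Across regions, which are not independent replicates, percentile ranks correlated at 0.730 between the WT libraries, 0.719 between the SETD2KO-1 libraries and 0.787 between the group means.

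No region passed, so those with the smallest p are given as values. The smallest was that of a region in no gene (chr10:42302473-42306726), which ranked at percentiles 0.0849 and 0.0258 in WT and 59.6 and 61.0 in SETD2KO-1 (adjusted p = 0.0855, limma). The others given lie in protein-coding genes. A region of MGRN1, a ubiquitin ligase gene (chr16:4681223-4681529), ranked at percentiles 0.388 and 0.284 in WT and 53.3 and 59.0 in SETD2KO-1 (adjusted p = 0.196, limma). A region of FABP5, a fatty acid binding protein (chr8:81279645-81281613), ranked at 20.9 and 6.72 in WT and 94.8 and 87.5 in SETD2KO-1 (adjusted p = 0.214, limma). PNPLA7, a lysophospholipase on chromosome 9, ranked at 3.90 and 39.8 in WT and 100 and 97.1 in SETD2KO-1. On the other side, a region of CDC27, a subunit of the anaphase-promoting complex (chr17:47120760-47121241), ranked at 66.8 and 68.6 in WT and 5.12 and 2.17 in SETD2KO-1 (adjusted p = 0.214, limma). A region shared by BHLHE41, a circadian repressor, and SSPN ranked at 78.4 in each WT library and at 8.42 and 5.86 in SETD2KO-1.

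The 12 IP libraries that the rule did not use show how far the gained and lost regions recur. In SETD2KO-2, 62.6% and 40.5% of the gained regions were called, against 37.8% and 23.8% of the lost regions and 51.8% and 35.7% of all regions. In SETD2KO-1R the shares were 39.2% and 21.5% of gained, 37.5% and 26.1% of lost and 42.3% and 31.2% of all regions. The gained share thus exceeded the lost share by 24.8 and 16.7 percentage points in the second knockout clone and by 1.78 and -4.64 points in the rescued clone, so that these groups did not overlap. With the upper 50% of peaks by score the excess was 17.4 and 4.51 points in SETD2KO-2 and -3.96 and -9.11 in SETD2KO-1R, and among regions in protein-coding genes it was 24.1 and 9.26 and then 2.70 and -3.58. Both SETD2KO-2 libraries called 869 of the gained regions (27.7%), and they called 41.0% of those in no gene against 21.5% of those in protein-coding genes. They called 303 of the lost regions (12.8%), at 9.62% of those in no gene and 12.7% of those in protein-coding genes. The share of all regions called by both libraries, in or outside genes, was not counted. Gained and lost regions can therefore be set against each other here, but not against a baseline.

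RPTEC libraries contributed nothing to the choice of regions. The gained minus lost share was -2.08 and -1.96 points in RPTEC SETD2KO-1 and 1.94 and -1.78 in RPTEC SETD2KO-2. It was -8.98 and -9.99 in RPTEC WT and -8.8 and -10.9 in RPTEC SETD2KO-1R. The 4 SETD2-deficient libraries, from -2.08 to 1.94, did not overlap the 4 SETD2-expressing ones, from -10.9 to -8.8. Among regions in protein-coding genes the ranges were -2.89 to 2.72 and -8.64 to -6.19. With regions drawn from peaks of at least 272 bp they were -3.65 to 2.39 and -11.2 to -5.96, and with the upper 50% of peaks by score -11.3 to -7.35 and -21.0 to -16.3. All these are descriptions of the regions as a set. The RPTEC libraries come from the parental line, its knockout clones SETD2KO-1 and SETD2KO-2 and the rescued clone SETD2KO-1R, so libraries of the same cells are not independent.

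**Figure D5:**
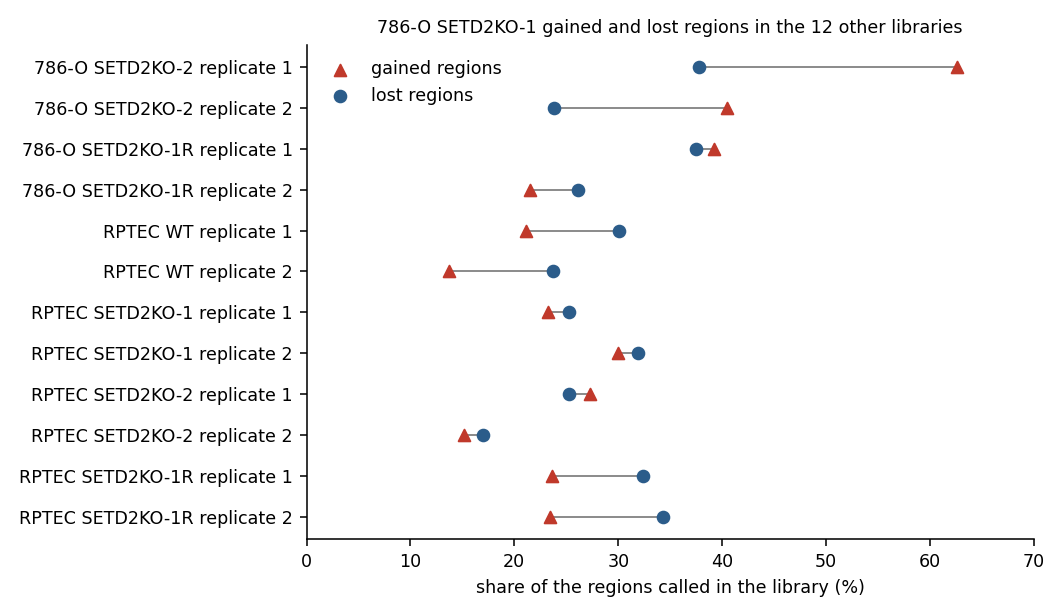
Share of the gained (triangles) and lost (circles) regions of 786-O SETD2KO-1 that each of the 12 other libraries called (x axis, %). The triangles lie right of the circles by 24.8 and 16.7 points in 786-O SETD2KO-2, and left of them by between 8.8 and 10.9 points in RPTEC WT and SETD2KO-1R.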

How the data were processed

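MeRIP-seq reads were aligned by the authors with STAR to hg38 and quantified with HTSeq 2.0.3, with scaling factors from spiked-in bacterial RNA. For each library they took MACS2 2.2.9.1 peaks over Input at a q-value of at most 0.05. The deposited files give positions, printed 1-based here, and a whole-number score whose scale is not given in the sources used here, so that it served as a rank within its library. The 16 Input libraries were not analysed here. Peaks sharing at least 1 bp were merged. Regions were assigned to gene bodies of GRCh38.p14 (20037 protein-coding genes) by midpoint, without exons, so overlapping genes share regions. Score ranks, as normal quantiles, and log2 covered width were fitted with limma 3.58.1 with Benjamini-Hochberg adjustment and tested on simulated data. Alternatives were other peak filters, merging rules and score scales, a replicate block and leaving out each library. The members and lists were chosen with earlier results of these data known. Named were the 8 gained and 8 lost regions with the highest mean percentile, 5 genes with most of each (ties added), 5 rank regions each way (those printed lie in genes, apart from that with the smallest p), up to 4 genes a list, and genes the study names. Other named genes, such as YBX1 and further list members, runs outside genes and genes with peaks on 1 side, were chosen after their values were seen. Some genes that this rule names are not reported here.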

Additional observations from a re-analysis of the deposited data

Results flagged for a closer look

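On chromosomes 2 and 16 the SETD2KO-1 libraries lay on opposite sides of WT in the 2 cell lines, which flagged them. On chromosome 16 the share of peaks in 786-O was 1.15 points higher in SETD2KO-1 than in WT (4.58% and 4.37% in WT, 5.84% and 5.39% in SETD2KO-1), and in RPTEC it changed by -0.34 points (4.96% and 4.84% in WT, 4.36% and 4.77% in SETD2KO-1). On chromosome 2 the change was -0.198 points in 786-O (6.75% and 6.85% in WT, 6.54% and 6.66% in SETD2KO-1) and 0.426 points in RPTEC (6.44% and 6.62% in WT, 6.97% and 6.94% in SETD2KO-1). The difference between the cell lines was not tested.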

How the results depend on the processing

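The upper 50% of peaks by score gave 1474 gained and 1317 lost regions. Peaks of at least 272 bp left 1563 lost regions, and gained minus lost then turned from negative to 117 on chromosome 1 and 39 on chromosome 7. Leaving out a library gave 4829 to 10880 gained and 4300 to 10946 lost regions, because a group of 1 library has fewer conditions to meet. Gained minus lost then ran from -6117 (without WT replicate 1) to 6580, and was -2848 without WT replicate 2. It ran from -62 to 614 on chromosome 9, negative without WT replicate 1. It ran from -873 to 395 on chromosome 1 and from -592 to 212 on chromosome 7, positive without either SETD2KO-1 library (150 and 61 without replicate 2). Genes with a peak on 1 side numbered 553 to 791 for SETD2KO-1 and 587 to 739 for WT over the same omissions. For score rank, 0 regions passed at each setting that kept all 4 libraries. All 8 named gained regions stayed gained in the 6 settings with all 4 libraries, and 6 of 8 lost ones stayed lost with peaks of at least 272 bp and 7 where a library had to cover 50% of the region. With the replicate number as a block, 0 regions passed for rank (1152 unadjusted) or width. Same-numbered libraries did not deviate together (correlations of -0.00145 and -0.014), so the numbers give no pairing. The peak lists hold no read counts, so precision per peak is unknown.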
